A study of Homo sapiens with 12 samples.

Results

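The genes described are 10 of the NOTCH pathway in BON-1, a cell line established from a human neuroendocrine tumour of the pancreas: the receptors NOTCH1, NOTCH2 and NOTCH3, the ligands JAG1, JAG2, DLL1, DLL3 and DLL4, and the target genes HES1 and HEY1. They were chosen by symbol, and all 10 were found among the 54261 genes measured. RNA was sequenced from BON-1 cells grown alone and from BON-1 cells that had shared a culture with CAFs (cancer-associated fibroblasts, going by common usage). The co-cultures were labelled 10:2, 10:4 and 10:6 for their proportion of BON-1 to CAF, with 3 libraries in each of the 4 groups. No drug, genetic change or time of culture is named in the labels, and neither is the source of the CAFs. Per the labels' protocols BON-1 cells were sorted out of the co-culture on a flow cytometer. The same text stands beside the libraries of BON-1 alone, so whether those cells were sorted is not given, and neither is the purity of the sort. Nothing says that libraries of a group came from separate cultures, so p-values measure only the spread between these libraries, which may be technical.

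NOTCH receptors are single-pass membrane proteins that are activated by ligands on a neighbouring cell. Ligand binding lets a metalloprotease and then the gamma-secretase complex cut the receptor, and the freed intracellular domain joins the DNA-binding protein RBPJ and switches on genes of the HES and HEY families. HES and HEY proteins are repressors, and in the pancreas and other endocrine tissues NOTCH activity is known for holding back the proneural factors that drive neuroendocrine differentiation.

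Promoter sequence is shown for 4 members, because HES1 is the textbook direct target and NOTCH3, JAG2 and DLL4 are members whose levels differed between groups. NOTCH1 also differed and had a promoter entry but is not shown. Each line holds the 250 bases before the RefSeq gene start in GRCh38.p14, on the strand of the gene. Capitals mark TGGGAA, the core that RBPJ binds, and CACGCG, a site that HES proteins bind, on either strand, so that CACGCG on the opposite strand reads CGCGTG. The windows are chr3:194135898-194136147 on the plus strand for HES1, chr19:15200996-15201245 on the minus strand for NOTCH3, chr14:105168777-105169026 on the minus strand for JAG2 and chr15:40929090-40929339 on the plus strand for DLL4.
HES1: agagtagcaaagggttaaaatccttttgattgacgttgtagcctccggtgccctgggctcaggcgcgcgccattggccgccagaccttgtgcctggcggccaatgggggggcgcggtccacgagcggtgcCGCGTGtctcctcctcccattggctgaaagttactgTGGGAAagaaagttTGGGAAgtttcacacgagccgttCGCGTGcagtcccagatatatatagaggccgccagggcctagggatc
NOTCH3: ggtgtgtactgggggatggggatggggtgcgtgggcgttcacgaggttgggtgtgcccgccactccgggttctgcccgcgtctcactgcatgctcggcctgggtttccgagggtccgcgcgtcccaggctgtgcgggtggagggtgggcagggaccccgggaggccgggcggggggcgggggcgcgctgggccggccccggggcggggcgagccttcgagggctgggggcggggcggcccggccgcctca
JAG2: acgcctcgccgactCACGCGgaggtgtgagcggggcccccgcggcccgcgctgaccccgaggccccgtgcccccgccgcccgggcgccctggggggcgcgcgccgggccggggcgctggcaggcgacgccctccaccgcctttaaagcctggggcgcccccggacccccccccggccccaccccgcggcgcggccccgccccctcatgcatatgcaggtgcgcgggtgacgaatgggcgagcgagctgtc
DLL4: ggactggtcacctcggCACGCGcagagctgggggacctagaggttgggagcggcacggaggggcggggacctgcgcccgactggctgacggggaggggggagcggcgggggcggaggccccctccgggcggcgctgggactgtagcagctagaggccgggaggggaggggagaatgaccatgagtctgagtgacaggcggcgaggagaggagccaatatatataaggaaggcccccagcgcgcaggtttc

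Of the 7 members with a promoter entry, HES1 was the one that held TGGGAA, with 2 matches at bases -84 to -79 and -70 to -65 before the gene start. TGGGAA occurred in 21.1% of 27305 promoter windows of this length and in 19% of the 9133 that belong to tested genes. CACGCG matched at 2 places in HES1 and at 1 place each in JAG2 and DLL4, against 9.62% of all windows and 16% of those of tested genes. Neither motif was found in the windows of NOTCH1, NOTCH2, NOTCH3 and JAG1. Another motif searched, the N-box CACNAG, is not marked above. It matched at 3 places in HES1 and at 1 place in NOTCH3, against 32% of all windows and 29.2% of those of tested genes. The HES1 window had a GC content of 59.2%, and those of JAG2 and NOTCH3 reached 81.6% and 78%, against a median of 65.2% over promoters of tested genes. These matches describe letters in a window and show no binding.

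Libraries held 11703624 to 21882537 reads assigned to genes, with the widest range in BON-1 alone. Of all genes, 13312 reached an FPKM of 1 (fragments per kilobase of gene, scaled to the total of the library) in at least 3 libraries and were tested by limma on log2(FPKM + 1), with a Benjamini-Hochberg adjusted p under 0.05 as the threshold. Log2 changes below are on that scale, which understates the change of low genes. All 10 members were tested, but NOTCH3 passed the filter only through the 3 libraries at 10:6 and so had to differ if it was tested at all. For this reason it is counted apart. Among tested genes, the change against BON-1 alone followed GC content, with Spearman's rho of -0.676, -0.715 and -0.719 across 12409 genes at 10:2, 10:4 and 10:6. Genes are not independent replicates, and these values are given as a description. The median GC content was 59% for the members and 49.8% for all of these genes. Members' changes past the threshold are therefore given beside their values after trends on gene length and GC content were removed from every library. Some other changes are given only as fitted.

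Markers of fibroblasts moved with the CAF share. The FPKM of 22 fibroblast markers summed to 73.1 to 75.6 in the libraries of BON-1 alone, 110.2 to 112.4 at 10:2, 191.7 to 198.9 at 10:4 and 275.7 to 279.2 at 10:6. Of the 14 markers tested, 10, 13 and 14 rose at the 3 ratios, where 19.9%, 27.3% and 29.7% of all tested genes rose; 1 of the 14 was tested only through its highest group, and PDPN was at 0 in every co-culture library. Of 11 neuroendocrine markers 10 had a mean of at least 1 FPKM in each group, and all 11 summed to 2728 to 2805 FPKM in BON-1 alone, 2950 to 2997 at 10:2, 2990 to 3055 at 10:4 and 3049 to 3136 at 10:6. Of these 10, 3 rose and 5 fell at 10:6, where 29.7% of all tested genes rose and 18.3% fell. After trends on length and GC content were removed, 2 rose and 2 fell, where 25.6% of all tested genes were called. In bulk RNA, fewer cells of a type and less RNA per cell cannot be told apart.

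On the FPKM scale, which is per length, the ligands were far more abundant than the receptors. In BON-1 alone DLL3 (53.9 ± 2.42 FPKM, SD, n = 3 here and below), DLL4 (53.5 ± 2.12) and JAG1 (53.3 ± 1.54) lay within each other's spread. JAG2 followed at 32.5 ± 1.09, the target HES1 at 23.6 ± 1.67 and the ligand DLL1 at 15.1 ± 0.418. NOTCH1 (3.36 ± 0.191) and HEY1 (2.82 ± 0.292) came next, and NOTCH2 (0.952 ± 0.0622) and NOTCH3 (0.402 ± 0.028) were lowest. The 5 ligands summed to 208.3 ± 2.78 FPKM and the 3 receptors to 4.71 ± 0.204. Across the ratios the order among the 3 highest ligands changed, and JAG1 was the highest of all members in each co-culture group by its mean.

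**Figure D1:**
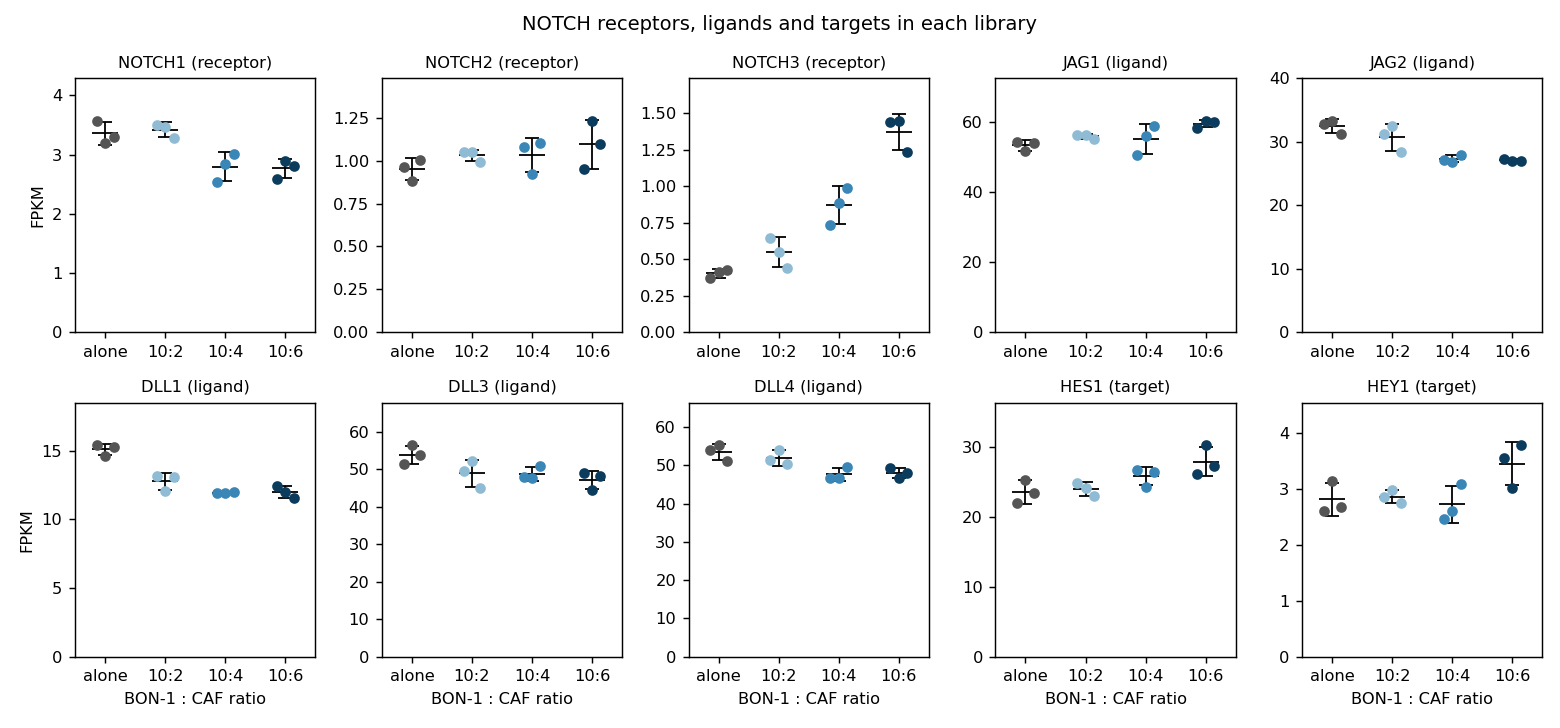
Each panel shows 1 gene, with FPKM on a linear vertical axis from 0 and the 4 groups along the horizontal axis; points are single libraries, and bars are the mean and SD of 3 libraries. NOTCH3 climbs from 0.402 in BON-1 alone to 1.37 FPKM at 10:6, whereas the other members move by far smaller shares of their level.

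Against BON-1 alone, the members other than NOTCH3 moved by small amounts, and most of those past the threshold were lower in co-culture. At 10:2, 1 of these 9 genes was called, a fall, where 27.4% of all tested genes were called, 19.9% up and 7.46% down. At 10:4 there were 4 falls and 0 rises, where 45.4% of all tested genes were called, 27.3% up and 18.1% down. At 10:6 there were 5 falls and 2 rises, where 48% were called, 29.7% up and 18.3% down. The share of members called was near the background at 10:4. The median log2 change of the 9 genes was 0.02, -0.14 and -0.15, against 0.003, -0.01 and 0.02 over all tested genes. With length and GC trends removed, 1, 2 and 3 of the 9 genes were called, against 11.7%, 23.1% and 25.6% of all genes, and the medians were -0.01, -0.04 and -0.04. The 3 comparisons share the libraries of BON-1 alone.

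**Figure D2:**
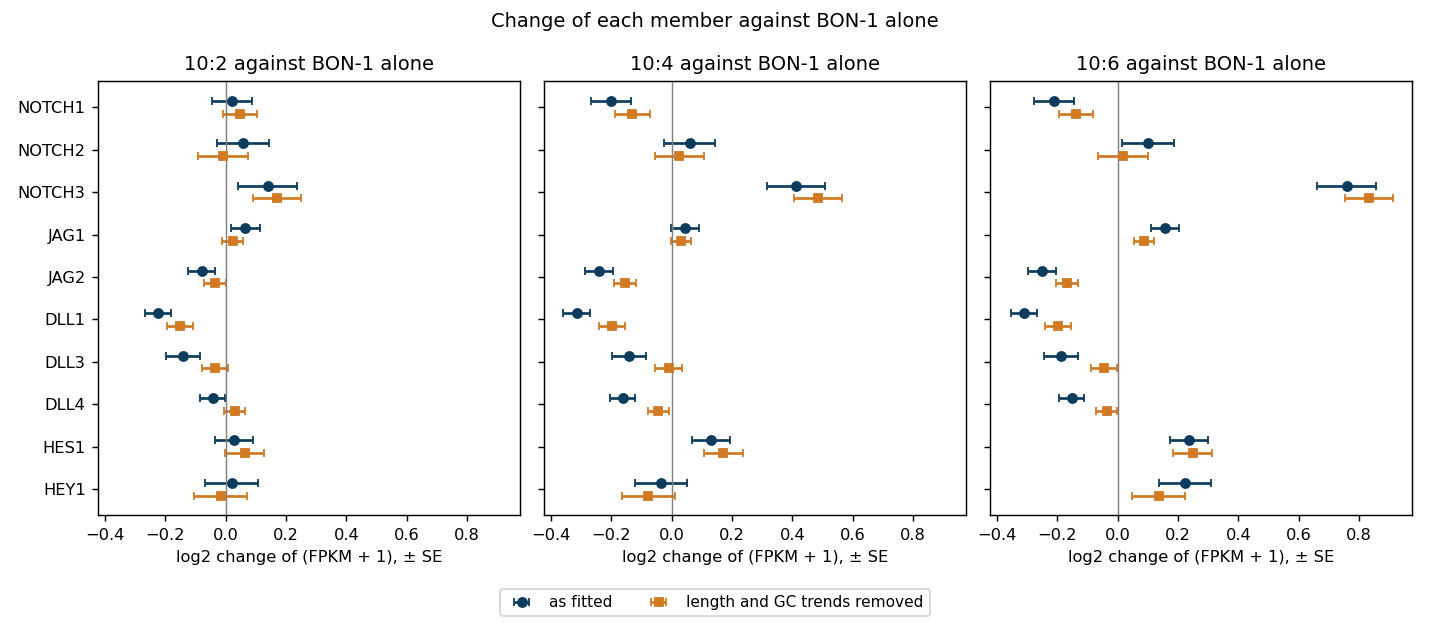
Points give the log2 change of (FPKM + 1) of each member against BON-1 alone, with bars of 1 SE, in a panel for each co-culture ratio; circles are the values as fitted and squares those with length and GC trends removed. DLL3 and DLL4 move toward 0 when the trends are removed, whereas NOTCH3 at 10:6 goes from 0.76 to 0.83 and HES1 from 0.24 to 0.25.

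NOTCH3, a receptor best known from mural cells of blood vessels and from fibroblasts, lies on chromosome 19 from 15159038 to 15200995 on the minus strand (GRCh38.p14, as for all positions here). Its libraries held 0.370, 0.413 and 0.422 FPKM in BON-1 alone, 0.646, 0.550 and 0.441 at 10:2, 0.732, 0.885 and 0.988 at 10:4, and 1.44, 1.45 and 1.23 at 10:6. Every library of a group with more CAFs was higher than every library of a group with fewer. The values rest on few reads, between 44 and 179 per library. NOTCH3 rose by 0.41 ± 0.0969 (SE) at 10:4 (limma adjusted p = 0.00473) and by 0.76 ± 0.0969 at 10:6 (adjusted p = 7.26e-05), a 3.42-fold ratio of mean FPKM. The change of 0.14 at 10:2 did not pass (adjusted p = 0.311). NOTCH3 entered these tests only through its libraries at 10:6, so their p-values depend on the level being tested and give no separate support. By limma-voom on the recovered reads, where no pseudocount of 1 FPKM compresses a low gene, the log2 change at 10:6 was 1.76. With no filter on low values, where every gene above 0 in any library was tested, the adjusted p was 0.00458 at 10:4 and 0.00011 at 10:6. With length and GC trends removed, and with the filter on low values in place, the rises were 0.49 and 0.83, both called. Leaving out any library at 10:6 took NOTCH3 below the filter, so it was then not tested.

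The level of NOTCH3 moved in the same direction as the tested fibroblast markers. Of its total rise from BON-1 alone to 10:6, 14.8% was present at 10:2 and 48.1% at 10:4. For the 14 fibroblast markers that rose, the median shares were 18.6% and 62%, with ranges of 12.7% to 45.5% and 49% to 100%, and their median ratio of 10:6 to BON-1 alone was 6.07-fold. These 14 were taken because they rose at 10:6, so a shared rise was set beforehand. Among them 1 was tested only through its highest group. Markers under the filter were left out. Apart from PDPN, at 0 in every co-culture library, their shares ran from -41% (TCF21) to 44.6% (LUM) at 10:2. At 10:4 they ran from 47.4% (DCN) to 97% (POSTN). The tested genes whose log2 values were most like NOTCH3 over the 12 libraries were FN1, fibronectin (Pearson's r = 0.988), and CCDC80, a secreted matrix protein (r = 0.974). The 12 libraries share the 4 group means, so these are descriptions with no p. FN1 rose from 21.7 ± 0.589 to 42.0 ± 1.15 FPKM at 10:6, a 1.93-fold ratio. Markers of mural cells were low. Their 7 genes summed to 2.25 to 2.84 FPKM in BON-1 alone, 3.08 to 3.68 at 10:2, 3.13 to 3.36 at 10:4 and 4.45 to 5.74 at 10:6. Of these 7, 2 were tested, 1 of them only through its highest group. At the 3 ratios 0, 1 and 2 mural markers rose, where 19.9%, 27.3% and 29.7% of all tested genes rose. The part of fibroblast or mural RNA in the NOTCH3 rise was not tested.

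**Figure D3:**
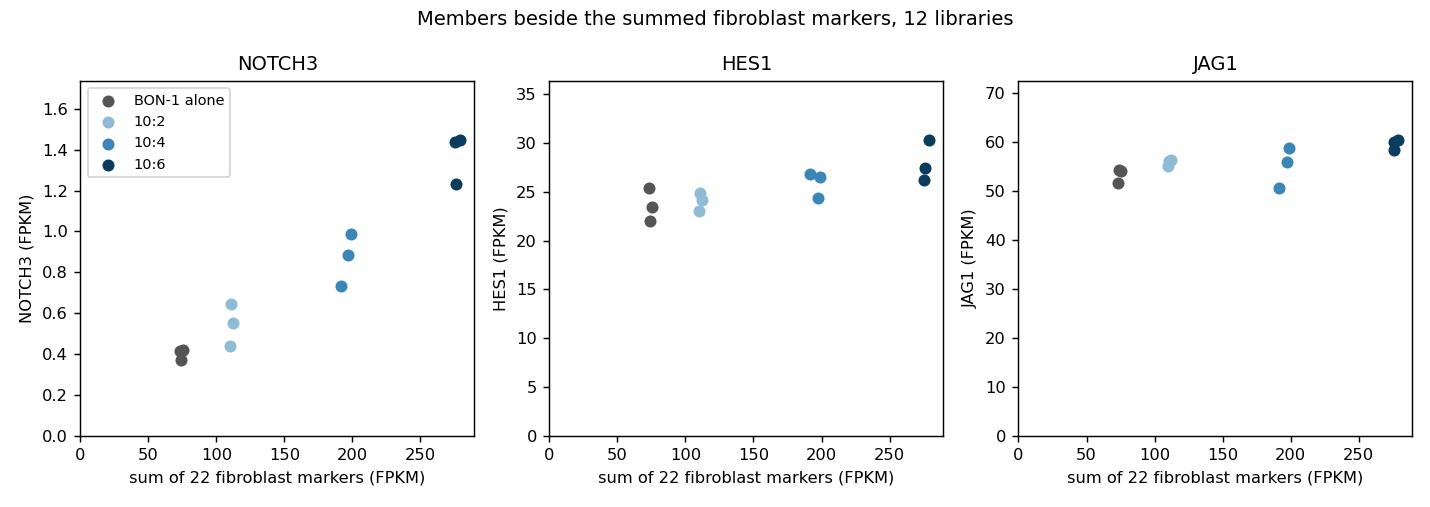
Each point is 1 of 12 libraries, with the summed FPKM of 22 fibroblast markers on the horizontal axis and the FPKM of NOTCH3, HES1 or JAG1 on the vertical axis, all linear and from 0; shades are the 4 groups. NOTCH3 rises with the marker sum through all 4 groups, and HES1 and JAG1 rise by much smaller shares of their level.

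NOTCH1, the most abundant of the receptors, lies on chromosome 9 from 136494433 to 136546048 on the minus strand. Its libraries read 3.57, 3.20 and 3.30 FPKM in BON-1 alone and 3.51, 3.47 and 3.28 at 10:2, with overlapping ranges. At 10:4 they read 2.54, 2.84 and 3.01 and at 10:6 2.59, 2.90 and 2.81, all below every library of the other 2 groups. NOTCH1 fell by 0.20 ± 0.066 (SE) at 10:4 (limma adjusted p = 0.0274) and by 0.21 ± 0.066 at 10:6 (adjusted p = 0.0204). Neither fall stayed past the threshold with length and GC trends removed, at -0.13 (adjusted p = 0.127) and -0.14 (adjusted p = 0.0989). The call at 10:4 was also lost without BON-1 alone replicate 1 (adjusted p = 0.103), BON-1 alone replicate 3 (0.0544), 10:4 replicate 1 (0.0955) or 10:4 replicate 2 (0.053), with no filter on low values (0.051) and with only the 2 groups in the fit (0.0631), and that at 10:6 without BON-1 alone replicate 1 (0.0817) or 10:6 replicate 1 (0.069).

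NOTCH2, on chromosome 1 from 119911553 to 120069662 on the minus strand, ranged from 0.884 to 1.23 FPKM over all 12 libraries, and its groups overlapped in each comparison with BON-1 alone. Its change at 10:6 was 0.10, with a 95% interval from -0.09 to 0.29 (limma adjusted p = 0.36). NOTCH2 shares near-identical sequence with the partial copy NOTCH2NL, listed at 0.0613 to 0.256 FPKM, so reads of both genes may be split between them. As shares of the receptor sum, NOTCH3 went from 8.55% ± 0.887 in BON-1 alone to 10.9% ± 1.53, 18.4% ± 1.39 and 26.2% ± 2.49 at the 3 ratios. NOTCH1 went from 71.2% ± 1.5 to 52.9% ± 1.58 at 10:6, and NOTCH2 from 20.2% ± 0.932 to 20.9% ± 1.57. The receptor sum itself was 4.71 ± 0.204 in BON-1 alone and 5.23 ± 0.307 at 10:6, and these sums and shares were not tested.

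Among the ligands, the Delta-like DLL1 fell at every ratio. DLL1 lies on chromosome 6 from 170282206 to 170291078 on the minus strand. Its libraries gave 15.4, 14.6 and 15.3 FPKM in BON-1 alone, 13.2, 12.1 and 13.1 at 10:2, 11.94, 11.89 and 11.96 at 10:4, and 12.4, 11.96 and 11.5 at 10:6. Every co-culture library was below every library of BON-1 alone, and the values at 10:4 and 10:6 overlapped. The falls were 0.22, 0.31 and 0.31 on the log2 scale, each with an SE of 0.0434 (limma adjusted p = 0.00279, 0.000136 and 0.000138). With length and GC trends removed they were smaller and still called, at -0.15, -0.20 and -0.20 (adjusted p = 0.0446, 0.00671 and 0.00618). In GENCODE 29 the gene model of DLL1 is longer, ending at 170306565, and overlaps FAM120B on the opposite strand over 15863 bases. That overlap is of whole gene spans, introns included, and most of it lies beyond the DLL1 end given above. FAM120B reached at most 6.24 FPKM, and the strand setting of the counting is not given in the sources used here, so reads of these genes may not be told apart.

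JAG2, a Jagged ligand on chromosome 14 from 105140995 to 105168776 on the minus strand, fell at the higher ratios. JAG2 stood at 32.8, 33.3 and 31.2 FPKM in BON-1 alone and 31.3, 32.4 and 28.4 at 10:2, and these groups overlapped. It stood at 27.2, 26.9 and 27.9 at 10:4 and 27.4, 27.0 and 27.0 at 10:6, below all libraries of the other 2 groups. JAG2 fell by 0.24 ± 0.0459 (SE) at 10:4 (limma adjusted p = 0.00133) and by 0.25 ± 0.0459 at 10:6 (adjusted p = 0.000928), and by 0.16 and 0.17 with length and GC trends removed (adjusted p = 0.00884 and 0.00545).

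DLL4, a Delta-like ligand best known from endothelial cells, lies on chromosome 15 from 40929340 to 40939073 on the plus strand. Its libraries read 54.1, 55.2 and 51.1 FPKM in BON-1 alone, 51.3, 54.1 and 50.3 at 10:2, 46.7, 46.7 and 49.6 at 10:4 and 49.4, 46.6 and 47.9 at 10:6. The libraries at 10:4 and 10:6 were below those of the other 2 groups, which overlapped. DLL4 fell by 0.16 at 10:4 (limma adjusted p = 0.00763) and by 0.15 at 10:6 (adjusted p = 0.00987). After both trends were removed, the changes were -0.04 at each (adjusted p = 0.4 and 0.49), and neither was called. Of 7 endothelial markers, 4 had a mean of at least 1 FPKM in BON-1 alone. CDH5 and KDR were among these 4, at 28.8 ± 0.604 and 10.9 ± 0.46 FPKM, whereas PECAM1 and VWF lay at 0.0627 ± 0.0269 and 0.121 ± 0.0367. The sum of 7 endothelial markers ranged from 43.1 to 48.2 FPKM over all libraries.

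DLL3, on chromosome 19 from 39498947 to 39508469 on the plus strand, is an atypical ligand that sits mainly inside the cell, inhibits NOTCH signalling there and is known as a surface antigen of neuroendocrine tumours. It was at 51.5, 56.4 and 53.8 FPKM in BON-1 alone and 49.1, 44.5 and 48.1 at 10:6, without overlap. DLL3 fell by 0.19 at 10:6 (limma adjusted p = 0.0177), while the changes of -0.14 at 10:2 and at 10:4 did not pass (adjusted p = 0.0883 and 0.0636). DLL3 at 10:2 did pass without 10:2 replicate 2 (adjusted p = 0.0371) and by limma-voom (0.0238). At 10:4 it passed without 10:2 replicate 2 (0.0477), 10:2 replicate 3 (0.0338) or 10:4 replicate 3 (0.0497), with median-of-ratios rescaling (0.042), with only the 2 groups in the fit (0.0382) and by limma-voom (0.0151). With length and GC trends removed, DLL3 changed by only -0.035 at 10:2 (limma adjusted p = 0.6785) and -0.01 at 10:4 (0.9035). The call at 10:6 was lost in the fits that left out BON-1 alone replicate 2 (adjusted p = 0.0722) and 10:6 replicate 2 (0.0761), and with length and GC trends removed, where the change was -0.04 (adjusted p = 0.504).

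JAG1, a Jagged ligand on chromosome 20 from 10637684 to 10673999 on the minus strand, was the ligand that was higher in co-culture. It stood at 54.3, 51.6 and 54.1 FPKM in BON-1 alone, 56.2, 56.3 and 55.1 at 10:2, 50.6, 56.0 and 58.8 at 10:4, and 58.3, 60.3 and 59.9 at 10:6. The libraries at 10:6 were above all of BON-1 alone, and those at 10:4 overlapped with both groups. At 10:4 JAG1 passed only in the fit without 10:4 replicate 1 (adjusted p = 0.0347). JAG1 rose by 0.16 ± 0.0468 (SE) at 10:6 (limma adjusted p = 0.0167). The rise lost its call in the fits that left out BON-1 alone replicate 2 (adjusted p = 0.067) and 10:6 replicate 2 (0.0531), and with length and GC trends removed, where it was 0.09 (adjusted p = 0.0782).

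JAG1 had a GC content of 49.6%, the lowest of the ligands, and the 4 ligands that fell at 10:6 had 58.3% to 64.9%. The ligand sum was 208.3 ± 2.78 FPKM in BON-1 alone, 200.1 ± 7.7 at 10:2, 190.9 ± 7.61 at 10:4 and 193.9 ± 3.07 at 10:6. JAG1 made up 25.6% ± 1.04 of it in BON-1 alone and 30.7% ± 1 at 10:6, without overlap, and DLL1 7.25% ± 0.283 and 6.17% ± 0.211. The ratio of ligand sum to receptor sum was 44.3 ± 2.36 in BON-1 alone and 37.1 ± 2.7 at 10:6. These sums, shares and ratios were not tested.

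HES1, the transcriptional repressor that NOTCH activates directly in many tissues, lies on chromosome 3 from 194136148 to 194138732 on the plus strand. Its libraries held 22.02, 25.3 and 23.4 FPKM in BON-1 alone, 24.9, 24.1 and 23.0 at 10:2, 26.8, 24.4 and 26.5 at 10:4, and 26.2, 30.3 and 27.4 at 10:6. All 3 libraries at 10:6 were above those of BON-1 alone and 10:2, and those at 10:4 overlapped with every other group. HES1 rose by 0.24 ± 0.0629 (SE) at 10:6 (limma adjusted p = 0.00886), a ratio of 1.19. The changes of 0.03 at 10:2 and 0.13 at 10:4 did not pass (adjusted p = 0.779 and 0.112), the latter with 0.0486 in the fit without BON-1 alone replicate 2. With a GC content of 49.9%, HES1 was close to the median of tested genes, and with length and GC trends removed its rise at 10:6 was 0.25 (adjusted p = 0.0148). It kept its call at 10:6 without each library in turn, with adjusted p from 0.00538 to 0.0414.

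HEY1, the other repressor among the targets, lies on chromosome 8 from 79764010 to 79767767 on the minus strand and was counted with 76 to 159 reads per library. Its libraries held 2.61, 3.15 and 2.69 FPKM in BON-1 alone, 2.85, 2.98 and 2.76 at 10:2, 2.47, 2.62 and 3.10 at 10:4, and 3.56, 3.03 and 3.79 at 10:6. The lowest library at 10:6 lay below the highest of BON-1 alone. The change of 0.22 at 10:6, with a 95% interval from 0.03 to 0.41, did not pass (limma adjusted p = 0.0537), and with length and GC trends removed it was 0.14 (adjusted p = 0.291). HEY1 passed without BON-1 alone replicate 2 (adjusted p = 0.0325), 10:4 replicate 3 (0.0411) or 10:6 replicate 2 (0.0237), and with a filter of 1 FPKM in all 12 libraries (0.0448).

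Between co-culture ratios, JAG2 was the member past the threshold among the 9 other than NOTCH3, for 10:6 against 10:2, where 6.97% of all tested genes were called, 4.52% up and 2.45% down (3.69% in all with trends on length and GC content removed). JAG2 fell by 0.17 ± 0.0459 (SE) (limma adjusted p = 0.0475). That JAG2 call was lost when any 1 of 11 of the 12 libraries was left out, 10:2 replicate 3 being the exception, with adjusted p from 0.0152 to 0.164 over the 12 fits, and it was also lost with the trends removed (adjusted p = 0.0661), with no filter on low values (0.0965), with the replicate block (0.0664) and with only the 2 groups in the fit (0.118). NOTCH3, counted apart because it was tested only through its libraries at 10:6, had a log2 change of 0.62 ± 0.0969 (adjusted p = 0.00586), or 0.66 with length and GC trends removed (adjusted p = 0.00143). For 10:4 against 10:2, limma called 0 of 10 members, against 2.88% of all tested genes. At an unadjusted p under 0.05 there were 4 members, NOTCH3 among them, against 21.6% of all tested genes. Limma-voom on recovered reads called NOTCH1 and JAG2 and, apart, NOTCH3, against 7.85% of all tested genes. For 10:6 against 10:4, limma called 0 members, against 0.331% of all tested genes. At an unadjusted p under 0.05 there were 3, NOTCH3 among them (13.3% of all tested genes). Limma-voom called 1 member, NOTCH3, against 2.07% of all tested genes.

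Over all 4 groups at once, the moderated F test of limma called 5 of the 9 members other than NOTCH3, namely NOTCH1, JAG2, DLL1, DLL4 and HES1, where 44.4% of tested genes passed. NOTCH3 also passed, but it entered the test only through its libraries at 10:6. NOTCH2 (adjusted p = 0.762), JAG1 (0.0759), DLL3 (0.071) and HEY1 (0.0945) did not pass. For each member that passed, the most similar tested genes over the 12 libraries were found by Pearson's r of log2 values, again as a description over libraries that share their group means. For JAG2 they were TAF1C (r = 0.984) and SNRNP70 (0.976), for DLL1 ELAC2 (0.961) and APEH (0.959), and for NOTCH1 LRP5L (0.949) and ITFG2 (0.945). DLL4 was most like DISP2 (0.954) and JAG2 (0.944), and HES1 was most like CXXC4 (0.892) and PANK1 (0.863).

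The rest of the pathway was described with a list of 68 other genes, of which 58 were tested. Of these, 16 rose and 8 fell at 10:2, 17 rose and 15 fell at 10:4, and 20 rose and 11 fell at 10:6, where 27.4%, 45.4% and 48% of all tested genes were called. With length and GC trends removed, 8 rose and 4 fell, 12 rose and 6 fell, and 14 rose and 7 fell, where 11.7%, 23.1% and 25.6% were called. The share called in the list was near that of all tested genes at 10:6. The median log2 change of the list was -0.02, -0.06 and -0.01, against 0.003, -0.01 and 0.02 over all tested genes.

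Of 8 tested enzyme subunits that cut the receptor, 3 rose and 2 fell at 10:6, where 48% of all tested genes were called, and 1 rose and 2 fell with the trends removed (25.6% of all tested genes). ADAM10, the metalloprotease that makes the first activating cut, rose from 4.48 ± 0.304 FPKM in BON-1 alone to 7.06 ± 0.196, 8.97 ± 0.152 and 8.14 ± 0.804 at the 3 ratios, a log2 rise of 0.74 at 10:6 (limma adjusted p = 4.95e-06) that was 0.30 with the trends removed (adjusted p = 0.00136). ADAM17, a related sheddase, rose by 0.69 at 10:6, but its 0.26 with the trends removed did not pass (adjusted p = 0.0687). NCSTN, the nicastrin subunit of gamma-secretase, fell by 0.14 at 10:6, and by 0.14 also with the trends removed (adjusted p = 0.0269).

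In the nuclear complex, RBPJ rose from 2.06 ± 0.0289 to 4.27 ± 0.422 FPKM at 10:6, by 0.78 on the log2 scale (limma adjusted p = 2.22e-05) and by 0.34 with the trends removed (adjusted p = 0.00253). SNW1, a splicing factor that also binds the NOTCH intracellular domain complex, rose by 0.81, and by 0.61 with the trends removed. CREBBP, a histone acetyltransferase, fell by 0.23 at 10:4, and its change of -0.13 at 10:6 did not pass. Among 11 corepressors, 5 rose and 2 fell at 10:6, against 48% of all tested genes called, and 3 rose and 2 fell with the trends removed, against 25.6%. KDM5A, a histone demethylase, rose by 0.68 and by 0.31 with the trends removed. HDAC2, a histone deacetylase, and CIR1, a corepressor that binds RBPJ, rose by 0.54 and 0.51, but with the trends removed their changes at 10:6 were 0.09 and 0.13 and did not pass.

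NEURL1, an E3 ubiquitin ligase of the family that acts on NOTCH ligands, fell from 70.9 ± 1.58 FPKM in BON-1 alone to 55.0 ± 0.337 at 10:6, by 0.36 on the log2 scale (limma adjusted p = 2.18e-06) and by 0.26 with the trends removed (adjusted p = 0.000114). MIB1, the ligase that drives ligand uptake, rose by 0.38 at 10:6, but with the trends removed its change was -0.07 (adjusted p = 0.576), and MIB2 fell by 0.26, with -0.18 and no call after removal. Of 9 tested genes of receptor turnover and negative regulation, 5 rose and 0 fell at 10:6. There 48% of all tested genes were called, 29.7% up and 18.3% down. With the trends removed 3 rose and 0 fell, where 25.6% of all tested genes were called in either direction. ITCH, a ubiquitin ligase that acts on NOTCH, rose by 0.69, CDK8, a kinase that marks the intracellular domain for destruction, by 0.41, and FBXW7, the ubiquitin ligase subunit that recognises that mark, by 0.45. With the trends removed their rises were 0.23, 0.21 and 0.24, all called. In receptor maturation, FURIN, the protease that cuts the receptor precursor, rose by 0.12 at 10:6 and by 0.22 with the trends removed. POGLUT1, which adds glucose to the receptor, rose by 0.46 and had 0.08 and no call with the trends removed, and POFUT1, which adds fucose, fell by 0.12 at 10:4.

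Of 8 other tested genes that NOTCH is known to affect, 1 rose and 2 fell at 10:6, against 48% of all tested genes called, and after trend removal there were 2 rises and 1 fall, against 25.6%. CDKN1A, the cell cycle inhibitor p21, rose from 41.1 ± 1.48 to 49.8 ± 2.48 FPKM at 10:6, by 0.27 on the log2 scale (limma adjusted p = 0.00024) and by 0.41 with the trends removed, and it also rose by 0.23 for 10:6 against 10:4. MYC fell by 0.15 at 10:6, with -0.06 and no call after trend removal. NRARP, a feedback inhibitor that NOTCH itself induces, fell by 0.26 at 10:2, while its change of 0.10 at 10:6 did not pass (adjusted p = 0.309), and with the trends removed it rose by 0.23 at 10:6 (adjusted p = 0.0438). NRARP rose for 10:6 against 10:2 by 0.36 (adjusted p = 0.0241). Of the neuroendocrine factors, NEUROD1 rose from 31.8 ± 1.87 to 41.2 ± 0.917 at 10:6, by 0.37 and by 0.18 with the trends removed, and INSM1 fell by 0.19, with -0.06 and no call after removal.

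**Figure D4:**
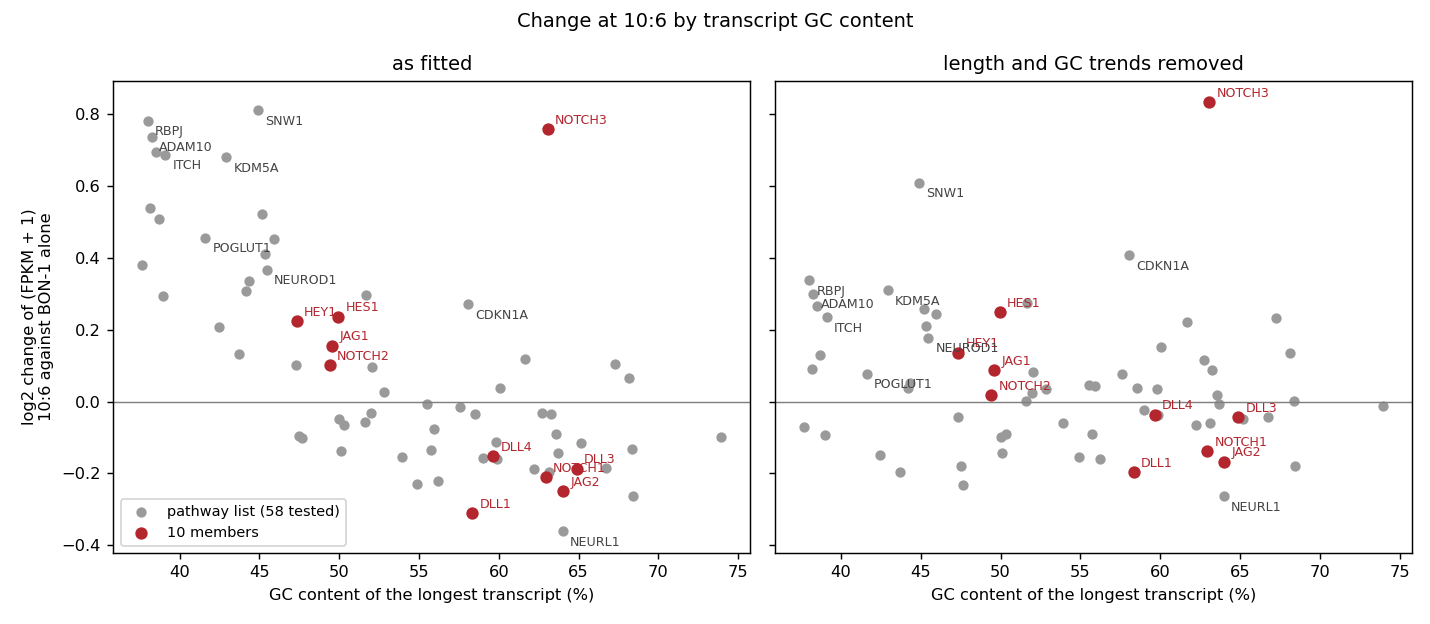
Points are genes, with the GC content of the longest transcript in percent on the horizontal axis and the log2 change of (FPKM + 1) at 10:6 against BON-1 alone on the vertical axis, as fitted on the left and with length and GC trends removed on the right; grey points are the 58 tested genes of the pathway list and red points the 10 members. On the left, low-GC genes such as RBPJ and ADAM10 lie high and high-GC ligands lie below 0. NOTCH3 lies above the other plotted genes of similar GC content in both panels. It was tested only through its libraries at 10:6, so a rise was set beforehand by the filter.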

How the data were processed

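RNA-seq values came from 1 table that the authors deposited, with FPKM for 54261 genes in 12 libraries of polyA RNA. Per the submitters' processing notes HISAT2, featureCounts and hg38 were used; their versions and the strand setting were not given in the sources used. Groups came from sample titles. Whole reads were recovered for 99.97% of 267349 nonzero values (within 1e-06 of a read), which gave the depths and the reads for limma-voom. No pair of libraries in a group agreed within counting noise.

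The 13312 genes that reached an FPKM of 1 in 3 or more libraries were fitted as log2(FPKM + 1) with limma 3.58.1 under R 4.3.3. Each group had 1 mean, the moderation used a variance trend, and p-values were adjusted over all tested genes within a comparison. FPKM is scaled to each library's total, so values are relative. Trends on length and GC content were removed per library with splines of 5 degrees of freedom. Length was the gene length recovered along with the reads, and GC content that of the longest transcript in GENCODE 29. Both were known for 93.2% of tested genes. Positions and promoters came from RefSeq, GRCh38.p14, with 7 of 10 members matched for promoters.

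Other alternatives changed the pseudocount, filter, scaling, libraries, unit and replicate block, and left out each library. The fit was checked on simulated data. The 10 members, the marker and pathway lists and the tests were chosen with earlier results of these data known. All members were named; from the pathway list, up to 3 called genes with the smallest F-test p in each subgroup; and the 2 genes most like each member that passed the F test. Python 3.11.15, numpy 2.4.6, pandas 2.3.3 and matplotlib 3.10.9 were used.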

Additional observations from a re-analysis of the deposited data

How the results depend on the processing

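Of 613 alternative values of the members' changes (the 9 members other than NOTCH3 against BON-1 alone, and JAG2 for 10:6 against 10:2), 539 kept their direction and their side of the threshold, 41 lost and 14 gained a call, and 19 changed sign, none of them a called value. NOTCH3 is not counted here, since its test depended on its level at 10:6. JAG2 at 10:4 and 10:6 and HES1 at 10:6 kept their call against BON-1 alone under every alternative run; DLL1 lost it in 1, at 10:2 (below). The causes of other changes were not tested. NOTCH3 and HEY1 had the fewest reads of the members, at 44 to 179 and 76 to 159 per library.

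Sign changes against BON-1 alone were as follows. With quantile normalization, NOTCH1, NOTCH2 and HEY1 at 10:2 had log2 changes of -0.107, -0.0505 and -0.117, and NOTCH2 had -0.0829 at 10:4 and -0.0386 at 10:6. With trends on length and GC content removed, with or without the replicate block, NOTCH2, DLL4 and HEY1 at 10:2 had -0.00855, 0.0307 and -0.016. Without 1 library, values at 10:2 ranged from -0.0047 to 0.0562 for NOTCH1, from -0.0192 to 0.078 for HES1 and from -0.018 to 0.082 for HEY1, and at 10:4 from -0.00308 to 0.103 for JAG1 and from -0.105 to 0.027 for HEY1.

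Member counts in this and the next 2 paragraphs include NOTCH3 wherever it was tested. Removal of the trends left 3, 4 and 1 members called at 10:4 and 10:6 against BON-1 alone and for 10:6 against 10:2, in place of 5, 8 and 2. Without NOTCH3, removal left 2 falls at 10:4, 1 rise and 2 falls at 10:6, and 0 calls for 10:6 against 10:2. The counts before removal were then 4, 7 and 1. It left 12, 18 and 1 genes of the pathway list at 10:2 and 10:4 against BON-1 alone and for 10:4 against 10:2, in place of 24, 32 and 2. Over all tested genes it left 1450, 2872 and 3171 against BON-1 alone (3648, 6046 and 6394 before), 106 for 10:4 against 10:2 (384), 100 for 10:6 against 10:4 (44) and 458 for 10:6 against 10:2 (928). By limma-voom on recovered reads, 2 members were called at 10:2 against BON-1 alone. Between ratios (10:4 against 10:2, 10:6 against 10:4 and 10:6 against 10:2) limma-voom called 3, 1 and 4 members, 8, 2 and 12 genes of the pathway list in place of 2, 1 and 6, and 1045, 276 and 1541 of all tested genes. With no filter on low values, the 1 member called for 10:6 against 10:2 was NOTCH3, the pathway list had 1, 0 and 3 calls between ratios, and all genes 179, 16 and 477. With only the 2 groups compared in the fit, the same counts were 1 member for 10:6 against 10:2, 0, 0 and 3 of the list, and 48, 12 and 263 of all genes. A filter that asked for 1 FPKM in all 12 libraries left out NOTCH2 and NOTCH3 and kept 1 call, JAG2, for 10:6 against 10:2. Quantile normalization called 1 member for 10:4 against 10:2 and 69 of all genes for 10:6 against 10:4. For 10:6 against 10:4 the single call in the pathway list went to 0 with a pseudocount of 0.1 and with median-of-ratios rescaling.

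No pairing by replicate number was seen: in 18 pairs of groups and numbers, deviations of same-numbered libraries correlated between -0.043 and 0.046, against -0.053 to 0.062 for other numbers. With 3 libraries per group this cannot settle whether same-numbered libraries were handled together, and the labels do not say. With the replicate block, 1 member (NOTCH3) was called for 10:6 against 10:2, the pathway list had 1, 0 and 2 calls between ratios, and all genes 175, 15 and 542. With the replicate block and the trends removed, 0, 3 and 4 members were called against BON-1 alone and 1 for 10:6 against 10:2, DLL1 at 10:2 having an adjusted p of 0.0564. The pathway list then had 9, 16 and 17 calls against BON-1 alone and 0 for 10:4 against 10:2 and for 10:6 against 10:4, and all genes had 1237, 2619 and 2886 against BON-1 alone, 48 for 10:4 against 10:2 and 297 for 10:6 against 10:2.

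Without each library in turn, called members ranged from 1 to 2 at 10:2, 4 to 6 at 10:4 and 6 to 9 at 10:6 against BON-1 alone, and from 0 to 1 for 10:4 against 10:2, 0 to 0 for 10:6 against 10:4 and 0 to 2 for 10:6 against 10:2. Part of this spread is NOTCH3, which was not tested when a library at 10:6 was left out. Calls in the pathway list ranged from 16 to 24, 26 to 34 and 24 to 33 against BON-1 alone, and 0 to 2, 0 to 1 and 2 to 7 between ratios. Calls over all genes ranged from 2592 to 3803, 5056 to 6074 and 5386 to 6460 against BON-1 alone, and 45 to 460, 11 to 42 and 217 to 1109 between ratios.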

Other observations

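Several relatives of the members stayed under the filter and were not tested; they are named here after their values were seen. NOTCH4, the remaining receptor, averaged 0.256 FPKM in BON-1 alone, 0.170 at 10:2, 0.214 at 10:4 and 0.169 at 10:6. HEYL, a HEY-family gene, averaged 0.351 in BON-1 alone, 0.491 at 10:2, 0.469 at 10:4 and 0.772 at 10:6. HES5, a target known from neural tissue, averaged between 0.0624 and 0.169. ATOH1, a proneural factor, was listed at 0 in all 12 libraries, and NEUROG3, the proneural factor of endocrine progenitors, averaged at most 0.0131.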
